A study of Mus musculus with 6 samples.

Results

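Transcripts of 9 transcription factors that build and maintain the endocrine pancreas, Pdx1, Nkx2-2, Nkx6-1, Neurod1, Isl1, Pax6, Mafa, Insm1 and Rfx6, were followed in whole mouse pancreas in which Prox1 had been switched on ectopically. The 9 genes were taken by exact symbol and were listed in all 6 count tables, among 23337 genes in all. Control pancreas (n = 3) came from mice at postnatal day 7 with a Cre recombinase allele at the Ptf1a locus (Ptf1a cre/+). Mutant pancreas (n = 3) came from mice of the same age that carried the same Ptf1a cre/+ allele together with CAG-loxP-STOP-loxP-Prox1-LacZ, a transgene that makes Prox1 and LacZ once Cre has removed its stop cassette. Both groups therefore carry 1 Cre allele of Ptf1a, and the labels give the strain NMRI throughout. Ptf1a is active in early multipotent pancreas progenitors and later in acinar cells, so a Cre at this locus can reach descendants of those progenitors as well as acinar cells. The series' design text speaks of pools for the controls and of individual pancreata for the mutants, while the extraction protocol names individual organs for both, and pooling and genotype cannot be told apart.

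Islets of Langerhans hold alpha, beta, delta and other hormone cells, and they arise from pancreas progenitors through a short-lived Neurog3 state. Pdx1 marks the progenitors of the whole organ, stays high in beta cells and persists at a low level in acinar cells. Insm1, Neurod1, Nkx2-2, Pax6, Isl1 and Rfx6 act as endocrine precursors differentiate and remain in hormone cells, whereas Nkx6-1 and Mafa belong to the beta cell in the grown organ. The factors were compared as a pair, Pdx1 and Nkx2-2, classed as also active in exocrine cells, against the other 7, classed as islet-restricted. RNA of a whole organ does not show which cell supplied a transcript, and fewer cells of a type and less RNA per cell cannot be told apart.

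The stretches of DNA before the RefSeq starts of Pdx1 and Nkx2-2, the pair that differed between the groups, and of Isl1, the islet-restricted factor with the highest level per length, are shown for comparison. They come from RefSeq windows of 250 bases before the start of a gene (GRCm38.p6), in which 7 of the 9 members were matched, all but Mafa and Insm1, and they end where the GENCODE M21 annotation of the same assembly begins an exon of that gene. Capitals mark the E-box CANNTG, the motif class that basic helix-loop-helix factors such as Ptf1a and Neurod1 bind. Each reads 5′ to 3′ on the strand of its gene. The Nkx2-2 stretch lies inside the gene as GENCODE draws it: the RefSeq start is 7841 bases after the GENCODE start, and all 197 printed bases fall in an intron. The printed stretches of Pdx1 and Isl1 lie outside the annotated gene.
Pdx1, chr5:147269847-147269958, plus strand, 112 bases: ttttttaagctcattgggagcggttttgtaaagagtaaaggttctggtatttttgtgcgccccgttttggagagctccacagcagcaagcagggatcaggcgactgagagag
Nkx2-2, chr2:147186456-147186652, minus strand, 197 bases: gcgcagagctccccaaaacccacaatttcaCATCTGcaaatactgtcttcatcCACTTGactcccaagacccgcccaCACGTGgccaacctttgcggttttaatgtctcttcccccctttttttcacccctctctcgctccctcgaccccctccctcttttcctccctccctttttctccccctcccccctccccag
Isl1, chr13:116309690-116309938, minus strand, 249 bases: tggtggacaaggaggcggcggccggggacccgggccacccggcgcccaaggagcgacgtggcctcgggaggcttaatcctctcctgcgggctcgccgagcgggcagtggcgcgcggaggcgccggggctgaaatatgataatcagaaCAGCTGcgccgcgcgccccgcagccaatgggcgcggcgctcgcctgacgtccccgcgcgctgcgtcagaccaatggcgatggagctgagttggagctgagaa

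Over the full 250-base windows CANNTG, searched on both strands, occurred 3 times before the RefSeq start of Nkx2-2 and 3 times before that of Pdx1, where all 3 lay 128, 122 and 51 bases before the RefSeq start, inside a stretch that GENCODE counts as the first exon and that is not printed. It occurred 1 time before Isl1 and Neurod1 and 0 times before Nkx6-1 and Rfx6, and of the 2 Pax6 starts 1 window held 1 match and the other 0. Among all 32851 windows of this length 66.2% held at least 1 match, with a median of 1. The palindrome CACGTG, which is itself a CANNTG and was picked after the windows had been seen, was present before Pdx1 and Nkx2-2 and in none of the other windows of the members, against 6.02% of all windows. Of the 8 windows of the members 4, those of Nkx2-2, Nkx6-1, Rfx6 and 1 of Pax6, lie wholly inside the gene that GENCODE annotates. These matches describe letters only, and no binding was measured.

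Levels are given as CPM, counts scaled to a common library size after TMM, which corrects for composition, and tests are edgeR's quasi-likelihood test with Benjamini-Hochberg adjustment over the 13017 genes that passed its filter on low counts. The gene switched on in mutants served as the check of the labels. Prox1, a homeobox factor of pancreas progenitors and of endocrine and duct cells, was at 10.8, 7.84 and 9.13 CPM in controls 1 to 3 and at 25.5, 31.3 and 30.9 CPM in mutants 1 to 3. All mutants lay above all controls (log2 fold change 1.67 ± 0.15 SE, edgeR adjusted p = 0.000239). Ptf1a was at 19.8 ± 1.85 CPM (SD, n = 3) in controls and 14.9 ± 0.529 CPM in mutants (edgeR adjusted p = 0.161). Libraries held between 7304727 and 10773223 counts, so that 1 CPM stood for 6.65 to 10.5 counts and the members rested on 4 to 128 counts per library. The tissue label was checked on 7 listed acinar markers (Cpa1, Cpb1, Cel, Prss2, Ctrb1, Amy2b and Pnlip), which summed to between 269074 and 353753 CPM. GENCODE M21 lists Amy2b as an unprocessed pseudogene, and it varied between controls, from 275 CPM in control 1 to 2328 CPM in control 2. Control 1 stood apart from controls 2 and 3: its 28 islet hormone, granule and beta cell genes had a geometric mean of 46.4 CPM against 31.7 and 33.4 CPM, and it was the only library with Xist in number (7110 counts) and with 0 counts of the Y-linked genes Ddx3y, Eif2s3y, Kdm5d and Uty. The other 5 libraries held 1 to 4 counts of Xist and 1132 to 1463 Y-linked counts. By these genes control 1 read as female and all mutants as male, so sex was not balanced between the groups. Sex and the other traits of control 1 cannot be told apart. Mutant 2 stood apart in 6 lymphoid genes, which summed to 78.2 CPM there and to between 6.19 and 24.9 CPM in the other 5 libraries.

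Nkx2-2 and Pdx1 were lower in mutant pancreas, and none of the islet-restricted factors passed the test in either direction. Nkx2-2 was 3.11-fold and Pdx1 2.24-fold lower, while the 6 islet-restricted factors that were abundant enough to test had fold changes between -0.59 and 0.49 on the log2 scale. At an adjusted p under 0.05, 1.51% of all tested genes were lower and 0.545% were higher in mutants. Of the 9 members 8 passed the filter, 2 were called lower and 0 higher. Among the islet-restricted factors 0 were called by edgeR, and 0 had an unadjusted p under 0.05 in edgeR, DESeq2 or limma-voom. Mafa was too low to be tested.

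**Figure D1:**
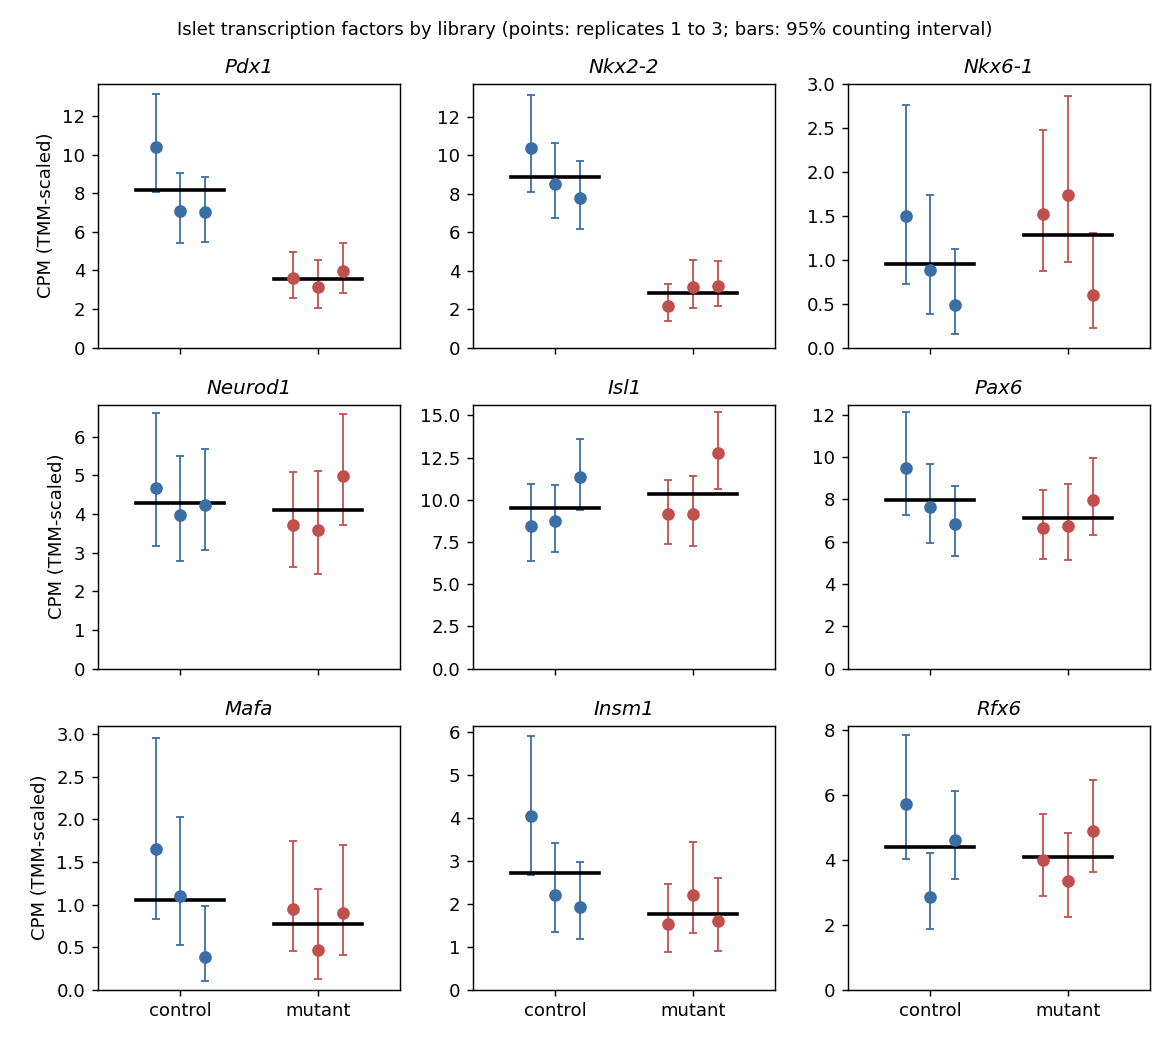
TMM-scaled CPM (vertical axes, from 0) of the 9 factors in control libraries 1 to 3 and mutant libraries 1 to 3 (left to right within a group), with exact Poisson intervals of 95% that cover counting error only and a black line at the group mean. The groups are separate in the panels of Pdx1 and Nkx2-2 and overlap in the other 7.

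Nkx2-2, a homeodomain factor needed for the formation and identity of islet cells (GRCm38 chr2:147177546-147194243, minus strand), was at 10.4, 8.51 and 7.78 CPM in controls 1 to 3 and at 2.19, 3.13 and 3.19 CPM in mutants 1 to 3. Every mutant lay below every control, with a wide gap between the groups. These CPM came from 69, 77 and 81 counts in controls and 23, 27 and 32 counts in mutants, and the 95% counting intervals of the groups did not meet: the lowest control bound was 6.18 CPM and the highest mutant bound was 4.56 CPM. The log2 fold change was -1.64 ± 0.22 (SE), with an interval of 95% from -2.13 to -1.15 and an edgeR adjusted p of 0.00381. Nkx2-2os, an antisense gene, overlaps 9.67% of the exon bases of Nkx2-2, and since the strand setting of the counting is not given its reads could not be separated. The call held under every alternative that was run, including the omission of any 1 library, with log2 fold changes between -1.74 and -1.45 and adjusted p up to 0.0262.

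Pdx1, the homeodomain factor of pancreas progenitors and beta cells (GRCm38 chr5:147269959-147275848, plus strand), was at 10.4, 7.07 and 7.02 CPM in controls 1 to 3. Mutants 1 to 3 were at 3.62, 3.13 and 3.99 CPM, all below the controls, and control 1 was above controls 2 and 3. The counts behind these values were 69, 64 and 73 in controls and 38, 27 and 40 in mutants, and the nearest counting bounds, 5.45 CPM in controls and 5.44 CPM in mutants, all but touched. The log2 fold change was -1.16 ± 0.22 (SE), with an interval of 95% from -1.66 to -0.67 and an edgeR adjusted p of 0.0249. The direction held under every alternative, but omitting any single library of the 6 ended the call (edgeR adjusted p from 0.0516 to 0.107), and the log2 fold change was -0.97 without control 1. Counts of Pdx1 and Nkx2-2 were equal in control 1 and in mutant 2 and differed in the other 4 libraries. In 9.86% of all tested genes the 3 mutants lay below the 3 controls, and Pdx1 and Nkx2-2 were the 2 members of which this was true.

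The factors shared by all islet cell types overlapped between the groups. Isl1, a LIM-homeodomain factor that is also made in mesenchyme and neurons, measured 8.42, 8.73 and 11.3 CPM across controls against 9.14, 9.17 and 12.8 CPM across mutants. The third library of each group was the highest, and the group means differed by 0.12 ± 0.19 on the log2 scale (SE; 95% interval from -0.30 to 0.53; edgeR adjusted p = 0.872). Pax6, a paired-domain and homeodomain factor needed for hormone gene expression, measured 9.47, 7.62 and 6.82 CPM across controls against 6.66, 6.73 and 7.99 CPM across mutants. The difference of -0.15 on the log2 scale had an interval from -0.55 to 0.25. For Isl1 and Pax6 these intervals leave out a loss as large as that estimated for Pdx1 or Nkx2-2.

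Neurod1, a basic helix-loop-helix factor switched on by Neurog3, measured 4.66, 3.98 and 4.23 CPM across controls against 3.71, 3.60 and 4.99 CPM across mutants, with a log2 fold change of -0.06 and an interval from -0.56 to 0.45. Rfx6, a winged-helix factor of endocrine differentiation, measured 5.71, 2.87 and 4.61 CPM across controls against 4.00, 3.37 and 4.89 CPM across mutants, with a log2 fold change of -0.09 and an interval from -0.72 to 0.54. Rfx6 values of the mutants all lay inside the range of the controls, and those of Neurod1 reached past it on both sides. Insm1, a zinc-finger factor of endocrine precursors, measured 4.06, 2.21 and 1.92 CPM across controls against 1.52, 2.20 and 1.60 CPM across mutants. Control 1 held the highest Insm1 value, and the log2 fold change of -0.59 had an interval from -1.39 to 0.21 (edgeR adjusted p = 0.566). That interval still holds a change of the size estimated for Pdx1. The estimate moved with 1 library: it was -0.22 without control 1 and reached -0.80 without control 3, and it was not called under either. Neurod1 shares 7.37% of its exon bases with Cerkl and 5.64% with the antisense gene Gm26755.

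The beta cell factors Nkx6-1 and Mafa were near the limit of what these libraries resolve. Nkx6-1, a homeodomain factor of beta cells and of early progenitors, had 10, 8 and 5 counts in controls and 16, 15 and 6 counts in mutants, or 1.50, 0.884 and 0.481 CPM against 1.52, 1.74 and 0.599 CPM. The third library of each group was the lowest. Its log2 fold change of 0.49 had an interval from -0.67 to 1.64, so that at this depth neither a rise nor a loss of moderate size was detectable. It ranged with the library left out from 0.13 without control 3 to 0.91 without control 1, was 0.33 without mutant 1, 0.25 without mutant 2 and 0.83 without mutant 3, and was called in none of these. Mafa, an activator of insulin genes in mature beta cells, had 11, 10 and 4 counts in controls and 10, 4 and 9 in mutants, and without the filter on low counts its log2 fold change was -0.36 ± 0.58 (SE; edgeR adjusted p = 0.878).

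Levels can be set in order across genes when CPM are divided by the exon length in kilobases. In controls the order was Pdx1 (3.78 ± 0.891 CPM per kilobase, SD, n = 3), Nkx2-2 (3.09 ± 0.465), Isl1 (2.40 ± 0.405), Neurod1 (1.57 ± 0.127), Rfx6 (1.10 ± 0.357), Insm1 (0.881 ± 0.374), Pax6 (0.682 ± 0.116), Mafa (0.383 ± 0.232) and Nkx6-1 (0.305 ± 0.164). Neighbours in this order overlapped in their library ranges except Isl1 with Neurod1 and Neurod1 with Rfx6. In mutants Isl1 came first with 2.62 ± 0.529 CPM per kilobase, ahead of Pdx1 with 1.66 ± 0.200 and Neurod1 with 1.50 ± 0.284, and Nkx2-2 with 0.988 ± 0.196 came after Rfx6 with 1.02 ± 0.191. There the ranges of Pdx1 and Neurod1 overlapped, as did those of Rfx6 and Nkx2-2, whereas Isl1 was clear of Pdx1. The annotated exons of Pax6 add up to 11694 bases, against 2158 to 4010 bases in the other members, which lowers its value per kilobase.

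Ratios within a library compare the exocrine-active pair with the islet-restricted factors and do not depend on how libraries are scaled. For every 100 counts of the 7 islet-restricted factors together, controls 1 to 3 held 29.2, 31.0 and 26.1 counts of Nkx2-2, and mutants 1 to 3 held 7.96, 11.5 and 9.47. The same figure for Pdx1 was 29.2, 25.8 and 23.5 in controls and 13.1, 11.5 and 11.8 in mutants. The summed level of the 7 factors itself overlapped between the groups, from 27.4 to 35.5 CPM in controls and from 27.3 to 33.7 CPM in mutants. That sum includes Isl1, which is also made in mesenchyme and neurons, so it does not measure islets alone. Against each of the 7 factors singly, the mean log2 ratio, mutant minus control, differed by -1.10 to -2.09 for Nkx2-2 and by -0.61 to -1.61 for Pdx1. The 14 ratios reuse the same pair of numerators, each already lower in mutants without overlap, so they are not independent and add no separate evidence of the change. In 12 of these 14 pairs all mutant ratios lay below all control ratios, with an exact permutation p of 0.1 (two-sided, n = 3 per group; Benjamini-Hochberg adjusted 0.117 over the 14 pairs). That is the smallest p that 3 libraries against 3 allow, so the design cannot reach 0.05 for a ratio. The 2 exceptions both had the scarce Mafa as divisor (exact p = 0.2 for Nkx2-2 and 0.3 for Pdx1).

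**Figure D2:**
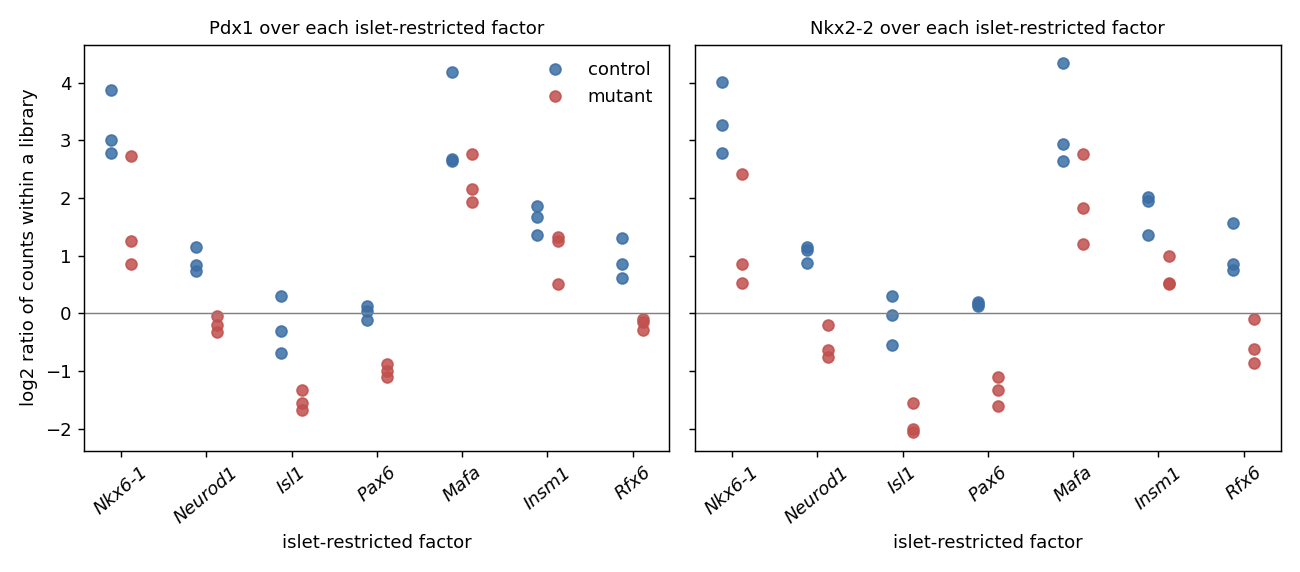
Log2 ratio of the counts of Pdx1 (left) or Nkx2-2 (right) to those of each islet-restricted factor within a library (vertical axis), for 3 control and 3 mutant libraries. Mutant points lie below all control points in 12 of the 14 columns, and the Mafa columns overlap.

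Neurog3, which starts the endocrine programme, and Pax4, which acts soon after it, were nearly absent at this age, with Neurog3 at no more than 0.451 CPM in any library and Pax4 listed at 0 in all 6. Of 26 further transcription factors of the islet network that were listed, 16 were tested. Beside 0.545% of all tested genes called higher and 1.51% lower, 1 of the 16, Prox1 itself, was called higher and 0 lower. At an unadjusted p under 0.05 edgeR gave 2 lower, Hnf4a and St18, and 1 higher, where 7.36% of all tested genes were lower and 5.41% higher at that threshold; DESeq2 and limma-voom likewise called Prox1 higher and 0 lower after adjustment. The median log2 fold change of the 16 was -0.10, beside 0.00 over all genes tested. Hnf4a, a nuclear receptor of gut-derived epithelia, was at 22.7 ± 2.87 CPM (SD, n = 3) in controls and 15.2 ± 2.15 CPM in mutants, without overlap (log2 fold change -0.57 ± 0.15 SE, edgeR adjusted p = 0.0903). Meis2, a homeodomain factor, had a log2 fold change of -0.12. Bhlha15 (-0.24) and Nr5a2 (-0.09), which are chiefly factors of acinar cells, are also among the most abundant of that list, and neither they nor Meis2 passed the test.

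**Figure D3:**
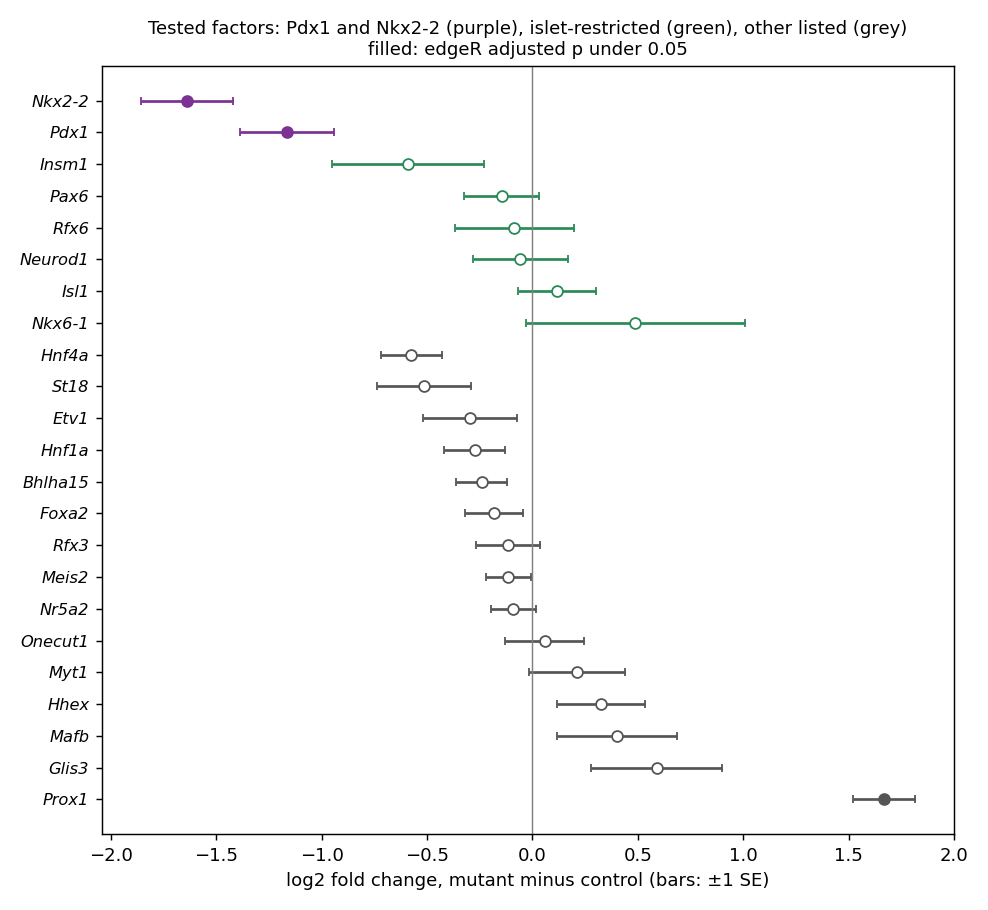
Log2 fold change, mutant minus control, with ±1 SE (horizontal axis) for 23 tested factors: Pdx1 and Nkx2-2 in purple, 6 islet-restricted factors in green and 15 of the other listed factors in grey. Filled points passed an edgeR adjusted p of 0.05, which were Nkx2-2, Pdx1 and Prox1.

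Genes that these factors regulate in islets gave a measure that is called islet content here. Their level can follow the factors as well as the amount of islet tissue, and the measure cannot tell these apart. Of 28 hormone, granule and beta cell function genes, all of which were tested, edgeR called 1 lower and 0 higher, against 1.51% and 0.545% of all tested genes. At an unadjusted p under 0.05 it gave 6 of the 28 lower and 0 higher, against 7.36% and 5.41% of all tested genes. In 6 of the 28 all mutants lay below all controls and in 1 above, against 9.86% and 9.13% of all tested genes. DESeq2 called 2 lower and 0 higher, beside 246 and 90 of all 13015 genes it tested. By limma-voom 1 was called lower and 0 higher, beside 200 and 70 of all 13017. The median log2 fold change of the 28 was -0.12, beside 0.00 over all genes tested. With library totals alone as the scaling it was 0.06, where the median of all genes was itself 0.17. Without control 1 it was 0.05, beside 0.01 for all genes. The geometric mean of the 28 genes was 33.3, 30.7 and 32.3 CPM in mutants 1 to 3 and 31.7 and 33.4 CPM in controls 2 and 3, which overlapped, and all of these lay below control 1. With libraries scaled to this islet content in place of TMM, the fold change on the log2 scale was -1.45 for Nkx2-2 (edgeR adjusted p = 0.00873) and -0.97 for Pdx1, which was then not called (edgeR adjusted p = 0.113). Scaling by genes that these factors regulate does not correct for the amount of islets alone.

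The gene called lower was Glp1r, the receptor for the incretin hormone GLP-1 on beta cells. It was at 9.02, 8.40 and 8.84 CPM in controls 1 to 3 and at 1.90, 1.39 and 2.70 CPM in mutants 1 to 3, with narrow spread among controls and no overlap. Its log2 fold change was -2.11 ± 0.24 (SE, n = 3; edgeR adjusted p = 0.00127), and it stayed called in all 17 alternatives. The most abundant islet genes did not pass the test: Ins2 had a log2 fold change of -0.43, Ins1 of -0.36 and Iapp, which is co-secreted with insulin, of -0.47, while Gcg of alpha cells had 0.38, Cpe, a prohormone-processing enzyme, 0.14, and Ttr, a carrier protein made in islets, 0.06. Chga, a granule protein of endocrine cells that was picked once its values were known, measured 223, 128 and 110 CPM in controls 1 to 3 and at 92.3, 70.1 and 60.2 CPM in mutants 1 to 3. Its groups did not overlap and control 1 was the highest, but the log2 fold change of -1.05 ± 0.25 (SE) missed the threshold (edgeR adjusted p = 0.0732), which it passed without the filter on low counts (0.0339) and with the replicate block (0.00440).

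**Figure D4:**
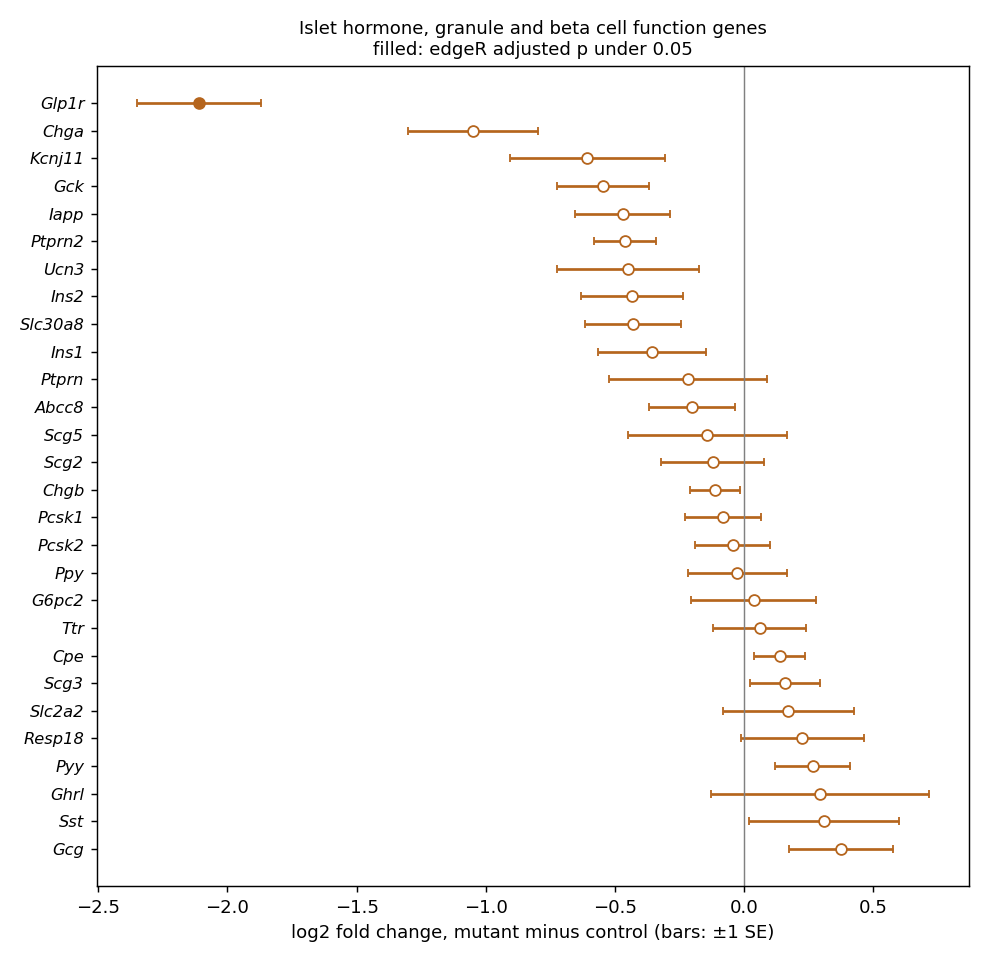
Log2 fold change, mutant minus control, with ±1 SE (horizontal axis) for the 28 hormone, granule and beta cell function genes. Glp1r at -2.11 carries the 1 filled point, the mark of an edgeR adjusted p under 0.05.

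The tested genes whose course over the 6 libraries was most like that of the called pair were sought among 10034 genes with a mean of at least 5 CPM, by the mean absolute difference of centred log2 CPM. For Nkx2-2 they were Vipr1, a receptor for vasoactive intestinal peptide (0.10), Spns2, a transporter of sphingosine-1-phosphate (0.17), and Klk1, the secreted tissue kallikrein of exocrine glands (0.17). Vipr1 was at 34.9, 24.97 and 31.2 CPM across controls against 7.62, 10.3 and 10.6 CPM across mutants, and Klk1 went from 2549 ± 219.6 CPM (SD, n = 3) to 1051 ± 181 CPM. For Pdx1 they were Kctd14 (0.10), Aldh1a1, a retinaldehyde dehydrogenase (0.10), and Clstn1, a calsyntenin (0.12). Aldh1a1 measured 202.5, 165 and 116 CPM across controls against 74.6, 64.1 and 77.0 CPM across mutants. All 6 were lower without overlap, which likeness to a called gene over 3 against 3 libraries brings with it.

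Markers of other cell types moved beside these results as follows. The 10 acinar transcription factors summed to between 1150 and 1239 CPM in controls and between 857 and 955 CPM in mutants. All 10 had a negative log2 fold change, with a median of -0.37. Of these 8 lay lower in all mutants than in all controls, against 9.86% of all tested genes. By edgeR 1 of the 10, Spdef, was called lower, against 1.51% of all tested genes. The 8 duct markers summed to 645 to 721 CPM in controls and 436 to 600 CPM in mutants, with a median log2 fold change of -0.43. By edgeR 0 of these were called, with 5 lower and 1 higher at an unadjusted p under 0.05 (7.36% and 5.41% of all tested genes). DESeq2 called 2 of the duct markers lower, beside 246 of all 13015 genes it tested, and limma-voom 0. Of the 7 listed acinar markers 1, the lipase gene Cel, was called lower by edgeR and limma-voom. DESeq2 called 2 of them lower, Cel and the lipase gene Pnlip, and the median log2 fold change of the 7, Amy2b included, was -0.10. The part of acinar or duct cells in the lower Nkx2-2 and Pdx1 was not tested. Of 13 stomach and intestine markers 10 stayed under 1 CPM in every library, among them Cdx2, Sox2, Muc5ac and Fabp2, so that the defining genes of gut were at or near 0; Vil1, a brush border protein, was called lower and Tff2, at 1019 ± 57.1 CPM (SD, n = 3) across controls against 811 ± 41.9 CPM across mutants, was not. The 15 nerve and glia markers summed to 20.8 to 24.96 CPM in controls and 19.9 to 26.6 CPM in mutants, with Dbh at 0 and Elavl3, Phox2a and Chat under 1 CPM throughout. Of the 9 that were tested 0 were called by edgeR, DESeq2 or limma-voom, and 1, Prph, was higher at an unadjusted p under 0.05 in edgeR. Their median log2 fold change was 0.29, with 7 of 9 positive. Prph and Tubb3 lay higher in all mutants than in all controls, against 9.13% of all tested genes. In the other direction Snap25 lay lower in all mutants than in all controls, against 9.86% of all tested genes. Th and Phox2a, too low to be tested, also lay lower in all mutants. The part of nerve cells in the Isl1 values was not tested.

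**Figure D5:**
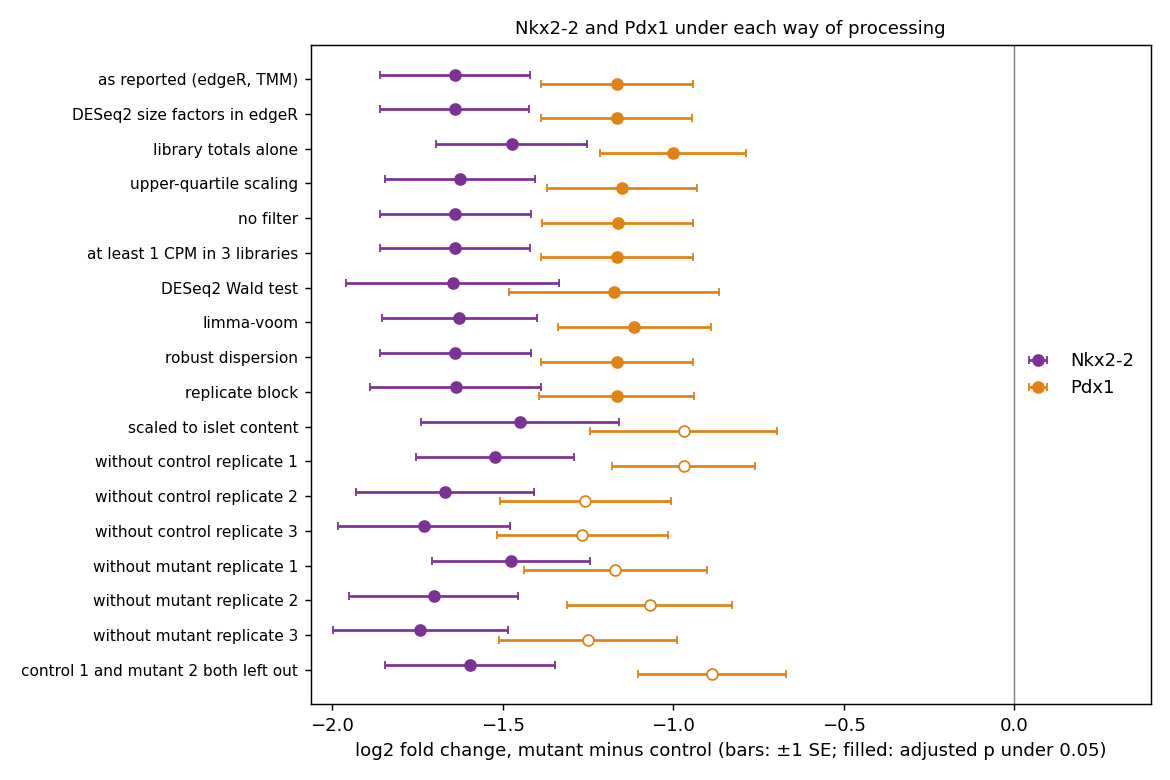
Log2 fold change of Nkx2-2 (purple) and Pdx1 (orange), mutant minus control, with ±1 SE under the reported fit and 17 alternatives (vertical axis). Filled points passed an adjusted p of 0.05, as Nkx2-2 did in all 17 alternatives and Pdx1 in 9.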

How the data were processed

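RNA of 6 whole-pancreas samples (3 control, 3 mutant) was sequenced after TruSeq mRNA library preparation. The authors deposited whole-number counts per gene symbol, 1 table per library. The submitters' processing notes name the mm10 build and, in no stated role, DESeq2, HTSeq 0.6.1p1, STAR and cutadapt 1.13. The sources used here give no annotation, strand setting or handling of multi-mapped reads. Groups and replicate numbers came from sample titles. The labels do not tie samples to litters or days, so p-values measure only the spread between these 6 samples. Each pair of libraries differed beyond sampling noise (chi-square per degree of freedom at least 5.83 over genes with at least 20 counts).

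Counts were tested with edgeR 4.0.16 in R 4.3.3 (quasi-likelihood, TMM, filterByExpr defaults, Benjamini-Hochberg over 13017 genes, threshold 0.05). The fit was also run on data simulated from its own estimates. Changes were set only in genes with a mean of at least 5 CPM, so that run does not cover members under that level. Standard errors are the absolute log2 fold change over the root of F, and intervals of 95% use the fit's degrees of freedom. Alternatives used DESeq2 1.42.0 and limma 3.58.1. Exon lengths and overlaps were read from GENCODE M21 (GRCm38, equal to mm10). The members, gene lists and tests were chosen with earlier results of these data known. All 9 members, Prox1, Ptf1a, the called genes and the 6 most abundant genes of each of the 2 islet lists, and the 3 genes most like Pdx1 and Nkx2-2 (log2 CPM with a prior count of 2) were named by rule, less 1 gene that is not reported here; St18, Prph, Tubb3, Pnlip, Spdef, Cel, Vil1, Tff2, Chga, Ptprn2, Sst, Pyy, Neurog3, Pax4 and the named markers were chosen after their values were seen. Of 6 spleen and lymphoid markers 4 were tested, and 0 were called or had an unadjusted p under 0.05 in edgeR, DESeq2 or limma-voom.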

Additional observations from a re-analysis of the deposited data

How the results depend on the processing

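Nkx2-2 kept its direction and its call in all 17 alternatives. The number of members called lower was 1 in place of 2 with libraries scaled to islet content, with control 1 and mutant 2 both left out (chosen after seeing the data) and without any 1 library (1 to 1), because Pdx1 lost its call: its log2 fold change was -0.97 with islet scaling, -0.89 with control 1 and mutant 2 both left out (edgeR adjusted p = 0.0564) and -1.27 to -0.97 without 1 library. Islet function genes called lower numbered 2 without the filter on low counts and 2 with the replicate block, each time by adding Chga, 2 with DESeq2 and 2 with control 1 and mutant 2 both left out, each time by adding Ptprn2, and 1 to 2 without 1 library. Those called higher numbered 0 to 1 without 1 library (Sst, without control 1) and 2 with control 1 and mutant 2 both left out (Sst and Pyy). Some factors that did not pass changed sign and still did not pass: Neurod1 had 0.10 with library totals alone, 0.12 with islet scaling, 0.08 with control 1 and mutant 2 both left out and -0.23 to 0.033 without 1 library; Pax6 had 0.017, 0.039 and 0.022 under the first 3 of these; Rfx6 had 0.074, 0.11 and 0.23 under them and -0.32 to 0.12 without 1 library; and Isl1 had -0.065 to 0.27 without 1 library. Library totals alone moved the median of all genes to 0.17 and the calls over all genes from 197 lower and 71 higher to 130 lower and 190 higher; without 1 library they ranged from 98 lower and 27 higher to 202 lower and 99 higher. Islet scaling gave 97 lower and 64 higher, and leaving out control 1 and mutant 2 gave 327 and 157.

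The deviations of same-numbered control and mutant libraries from their group means had correlations of 0.080, 0.029 and -0.071. With 3 libraries per group these values cannot decide whether the numbers pair the samples, and the labels do not say. With the replicate block 2 members were called lower, Nkx2-2 (log2 fold change -1.64, edgeR adjusted p = 0.0120) and Pdx1 (-1.16, 0.0372), and 188 genes were lower and 53 higher; 2 of the 3 controls correlated best with the mutant of their own number. Counting error limits Nkx6-1 and Mafa, at 4 to 16 counts per library.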
